A study of Mus musculus with 6 samples.

Results

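The acetyl mark on lysine 27 of histone H3 (H3K27ac), which active promoters and enhancers carry, was followed over 10 genes of cytokine signalling. The cells were hematopoietic stem cells of mouse bone marrow. The genes were the Janus kinases Jak1, Jak2 and Tyk2, the transcription factors Stat3, Stat5a and Stat5b, and the suppressors of cytokine signalling Socs1, Socs2, Socs3 and Cish. They are 10 of the 21887 protein-coding genes in the RefSeq table of the GRCm38 build. Each was taken from its RefSeq start to its RefSeq end plus 10 kb on each side, and all peaks overlapping that span were counted. Where spans of neighbours touched they were merged, which left 8 stretches of 566.324 kb in all.

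The groups were 3 libraries from Ppp2ca KO mice, described as Ppp2ca deficient, and 3 libraries from Ppp2ca WT mice. Ppp2ca encodes a catalytic subunit of the phosphatase PP2A. The assay was CUT&RUN on 100000 cells per library: a nuclease tethered by an antibody cuts around the mark, and the DNA that comes free is sequenced. Sex and age of the mice are not given, nor the part of Ppp2ca removed and the means of removing it. The series text gives 3 mice per genotype, but no label carries an animal number, so each spread below is one between libraries.

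In this pathway a cytokine receptor brings together Janus kinases, which phosphorylate the receptor and then a STAT protein. Phosphorylated STATs pair, enter the nucleus and bind DNA at sites with the palindrome TTCNNNGAA. SOCS genes, Cish among them, are classical STAT targets whose products bind receptors or kinases and switch the signal off. In blood formation JAK2 carries the signals of the erythropoietin receptor and related receptors, STAT5A and STAT5B act downstream of it, and STAT3 is best known downstream of the IL-6 and G-CSF receptors.

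The KO lists held 50453, 34016 and 35629 peaks and the WT lists 22066, 29945 and 21917. A q-value of at most 0.05 was reached by 43.9%, 47.4% and 66.6% of KO peaks and by 16.6%, 15.7% and 16.7% of WT peaks. The number of fragments piled up at a summit was recovered from the authors' fold and p-value. Its median, over peaks with a −log10 p-value under 15, was 6 to 9 in KO libraries and 5 in each WT library. The genome background, in fragments per 200 bp, was 0.677 ± 0.189 in KO and 0.527 ± 0.0494 in WT libraries (SD, n = 3 each), with overlapping ranges. An end of Ppp2ca itself carried a peak in 3 KO and 3 WT libraries, which checks no label because the deleted part is unknown. Of 16 stem and progenitor markers, 4.67 ± 1.15 in KO and 4.67 ± 0.577 in WT libraries (SD, n = 3 each) had a peak at a gene end. Runx1, Spi1 and Tal1 were marked in all 6 libraries, while 9, among them Cd34, Ly6a, Slamf1, Mecom, Hlf, Gata2, Hoxa9 and Gfi1b, had no gene-end peak in any library. Markers of other cells were marked at a mean of 2.67 in KO and 2 in WT libraries of 6 for granulocytes and monocytes, 0.667 and 0.333 of 4 for B cells, and 0.667 and 1.33 of 5 for T and NK cells. The means were 3 in KO and 2.33 in WT libraries of 5 for erythroid cells, 2 and 2.33 of 3 for megakaryocytes, 1 and 1 of 4 for endothelium and stroma, and 0 and 0.333 of 4 for other organs. Over all peaks, none of these marker lists had more marked genes in every KO library than in every WT library. Counting peaks with q of at most 0.05, 3 lists did, with 4, 4 and 4 stem and progenitor markers in KO and 2, 2 and 2 in WT libraries. Granulocyte and monocyte markers then numbered 1, 2 and 2 in KO and 0, 0 and 0 in WT libraries, and erythroid markers 2, 3 and 3 in KO and 0, 0 and 0 in WT libraries. Of all protein-coding genes, 32.2% to 39.3% were marked at that threshold in KO and 9.82% to 12.4% in WT libraries, so the same gap ran across the genome.

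Among the 9 members with an entry in the RefSeq promoter table, 4 promoters are shown because the results below turn on them. Each line gives 250 bases before the transcription start and 30 from it, 5′ to 3′ on the gene's own strand, and capitals mark TTCNNNGAA.
Stat3: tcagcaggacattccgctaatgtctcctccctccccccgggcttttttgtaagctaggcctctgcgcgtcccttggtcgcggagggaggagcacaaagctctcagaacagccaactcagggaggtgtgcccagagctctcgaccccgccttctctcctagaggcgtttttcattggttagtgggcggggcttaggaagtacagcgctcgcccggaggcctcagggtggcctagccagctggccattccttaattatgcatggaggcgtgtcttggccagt
Stat5b: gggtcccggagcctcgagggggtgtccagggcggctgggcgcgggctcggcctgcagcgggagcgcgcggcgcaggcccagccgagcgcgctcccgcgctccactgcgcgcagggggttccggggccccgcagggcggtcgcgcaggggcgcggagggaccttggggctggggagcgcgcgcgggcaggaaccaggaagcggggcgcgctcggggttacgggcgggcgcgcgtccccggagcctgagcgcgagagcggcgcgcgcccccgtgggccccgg
Socs3: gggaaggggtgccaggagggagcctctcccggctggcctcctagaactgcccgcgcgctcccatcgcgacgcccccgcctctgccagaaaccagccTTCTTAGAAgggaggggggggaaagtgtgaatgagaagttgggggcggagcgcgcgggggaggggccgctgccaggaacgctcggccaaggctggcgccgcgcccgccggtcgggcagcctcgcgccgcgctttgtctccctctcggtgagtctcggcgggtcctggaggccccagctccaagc
Cish: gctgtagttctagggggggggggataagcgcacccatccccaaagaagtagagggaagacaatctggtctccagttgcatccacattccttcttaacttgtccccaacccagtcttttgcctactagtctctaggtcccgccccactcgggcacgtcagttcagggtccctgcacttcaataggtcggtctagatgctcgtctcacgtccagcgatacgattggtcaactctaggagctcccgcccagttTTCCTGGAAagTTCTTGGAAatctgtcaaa
These lie at chr11:100939511-100939790 on the minus strand (Stat3), chr11:100850552-100850831 on the minus strand (Stat5b), chr11:117969337-117969616 on the minus strand (Socs3) and chr9:107296409-107296688 on the plus strand (Cish), in RefSeq GRCm38.p6. The motif reads the same on both strands and stood in 8.30% of 32851 promoters of 300 bases. Of the 11 member promoters, those of Cish and Socs3 held it. Cish had TTCCTGGAA at bases 1 to 9 from the start and TTCTTGGAA at bases 12 to 20, and a second copy was found in 0.457% of all promoters. Socs3 had TTCTTAGAA at positions -154 to -146 relative to its start. The same half-sites TTC and GAA with 1 more base between them occurred in 6.95% of promoters and in 0 of the 11. GC content of the 300 bases was 82.7% at this Stat5b start, 73.3% at Socs3, 60.7% at Stat3 and 53.3% at Cish, beside a median of 52.7% over all promoters.

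The first comparison asked which of the genes carried the mark at their ends, that is, a peak within 1 kb of the RefSeq start or end of the gene. Members marked numbered 7, 6 and 9 of 10 in KO libraries and 5, 5 and 4 in WT libraries, or 7.33 ± 1.53 and 4.67 ± 0.577 (SD, n = 3 each). The groups did not overlap with all peaks counted. With each list cut to the length of the shortest, the counts were 7, 5 and 9 in KO and 5, 5 and 4 in WT libraries. KO replicate 2 then equalled WT replicates 1 and 2. The share of all genes marked at that list length is not given here. These are bulk cells, so a mark in fewer cells and a weaker mark per cell cannot be told apart. With all peaks, 42.0% ± 2.36 of protein-coding genes were marked in KO and 27.5% ± 2.03 in WT libraries (SD, n = 3 each). The gap at the members with all peaks thus accompanied a gap across the genome. Stat3, Socs1 and Cish were marked in all 6 libraries, as were 17.0% of all genes. No member had gene-end peaks in all 3 KO and no WT library, a pattern of 4.10% of all genes. None showed the reverse, which 0.00914% of all genes did. Counting peaks with q of at most 0.05, Jak1 was the member marked in all 3 KO and no WT library, against 12.4% of all genes. At that threshold 7, 4 and 9 members were marked in KO libraries and 2, 1 and 2 in WT libraries. Of all genes, 32.2% to 39.3% were then marked in KO and 9.82% to 12.4% in WT libraries.

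**Figure D1:**
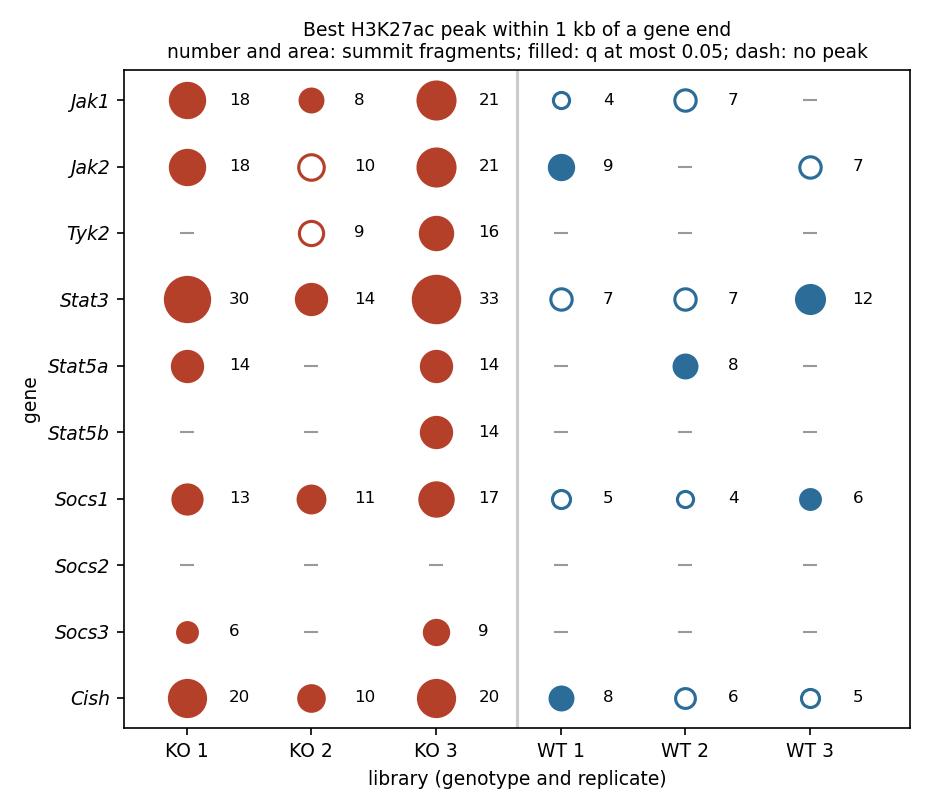
Best peak within 1 kb of a gene end for each gene (rows) in each library (columns, KO left of WT); the number and the area of a circle give the fragments at the summit, a filled circle has a q-value of at most 0.05 and a dash means no peak. Stat3, Socs1 and Cish have a circle in all 6 libraries and higher numbers in each KO than in each WT library, and Socs2 has none. Summit fragments were likewise higher in each KO library in 83.2% of the 5501 regions with peaks in all 6 libraries.

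Of the kinases, Jak1 and Jak2 were marked at the start in most libraries of both genotypes and Tyk2 in 2 KO libraries. Jak1, the kinase paired with interferon and IL-6 family receptors, lies on chromosome 4 from 101151974 to 101265282 and starts at its high-coordinate end. Its start peak had 18, 8 and 21 summit fragments in KO replicates 1 to 3, against 4 and 7 in WT replicates 1 and 2, and no peak in WT replicate 3. The 3 KO peaks were 783, 509 and 683 bp wide, with folds of 6.38, 3.88 and 6.40 over the caller's background, and each passed a q-value of 0.05. Neither WT peak did, at folds of 2.98 and 3.92. Within their lists the KO peaks stood at percentiles 4.17, 33.8 and 5.58, where 0 is the strongest, and the WT peaks at 75.8 and 17.0. WT replicate 2 therefore ranked its Jak1 peak higher than KO replicate 2 did. The pattern over the 6 libraries was shared by 711 genes (3.25%), among them Ifnar1, Ptpn11 and Pias4 from the wider pathway.

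Jak2, which serves the erythropoietin receptor, spans 29251803 to 29313095 on chromosome 19 and was marked just downstream of its start. The peak held 18, 10 and 21 fragments in KO replicates 1 to 3, against 9 and 7 in WT replicates 1 and 3. KO and WT folds overlapped, at 3.47, 3.13 and 3.65 in KO and 4.39 and 3.60 in WT libraries, and the strongest rank was percentile 9.85 in WT replicate 1. Of the other pathway genes Csf3r and Cblb had the same on and off pattern. The body of Jak2 held a further region from 29271093 to 29271694, 19290 bp from the start, with 12, 8 and 14 fragments in KO libraries and 7 in WT replicate 2, each with a q-value of at most 0.05.

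Tyk2, which acts at interferon and IL-12 receptors, spans 21104068 to 21131393 on chromosome 9. Its start had a peak of 9 fragments in KO replicate 2, which missed a q-value of 0.05, and one of 16 fragments in KO replicate 3, and none in KO replicate 1 or any WT library. Most of the mark over Tyk2 lay elsewhere. A region inside the gene from 21125369 to 21126686, 4589 bp from the start, had 18, 10 and 17 fragments in KO libraries and 5 and 6 in WT replicates 1 and 2. Upstream of the start, a region from 21135715 to 21136857 between Tyk2 and Cdc37 was found in all 6 libraries, with 18, 11 and 19 fragments in KO and 5, 6 and 5 in WT libraries. The KO peaks there all passed a q-value of 0.05 and the WT peaks did not.

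The 3 STAT genes lie side by side on chromosome 11, Stat5b from 100780731 to 100859004, Stat5a from 100859351 to 100885169 and Stat3 from 100886806 to 100939594. By summit fragments Stat3 had the strongest gene-end peak of the 10 genes in each of the 3 KO libraries. Its start peak held 30, 14 and 33 fragments in KO replicates 1 to 3 and 7, 7 and 12 in WT replicates 1 to 3, so the groups did not overlap. Summit fragments separated in the same direction in 83.2% of the 5501 regions with peaks in all 6 libraries. At the Stat3 start KO peaks were 1676, 854 and 1101 bp wide and WT peaks 371, 460 and 475 bp. Median peak width over whole lists was likewise larger in KO libraries, at 306 to 391 bp against 221 to 236 bp. The fold was 6.38, 4.03 and 5.82 in KO and 3.31, 3.17 and 5.20 in WT libraries, with WT replicate 3 above KO replicate 2. In rank, too, WT replicate 3 (percentile 3.05) stood beside KO replicates 1 and 3 (1.40 and 2.82), while KO replicate 2 stood at 15.5 and WT replicates 1 and 2 at 41.9 and 43.0. Inside Stat3 a region from 100931055 to 100932404 had 23, 14 and 25 fragments in KO and 5, 8 and 7 in WT libraries. Another, from 100891203 to 100892396 near the 3′ end of the gene, had 17, 13 and 27 in KO and 10, 10 and 8 in WT libraries, and passed a q-value of 0.05 in all 6.

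Stat5b and Stat5a, which encode closely related proteins, are transcribed away from each other. RefSeq gives Stat5b a start at 100850581, 8.423 kb inside the end of its span, so the window at the gene end does not reach it. At this start, whose promoter is the GC-rich sequence shown above, all 3 KO libraries had a peak and no WT library did. The strongest KO peaks held 14, 8 and 14 fragments, lay at percentiles 18.6, 37.4 and 49.2, and passed a q-value of 0.05. With weaker neighbours in KO replicates 1 and 2 they covered 795, 598 and 1588 bp. The nearest WT peaks, of 7 and 8 fragments in WT replicates 1 and 2, lay in a region that ends 2228 bp from the start and was also found in KO replicate 2. It was 1 of 11 member starts with this pattern, which 4.25% of all 21263 starts had. A second Stat5b start at 100822570 had peaks in KO replicates 1 and 3, with 16 and 17 fragments, and in all 3 WT libraries, with 9, 8 and 9, none with a q-value of at most 0.05. Stat5a has RefSeq starts at 100859656 and 100860484. No peak covered the first of them. A peak over the second held 14 fragments in KO replicates 1 and 3 and 8 in WT replicate 2, each at a q-value of at most 0.05. In KO replicate 2 the strongest peak held 6 fragments and missed a q-value of 0.05. It lay 383 bp past the second start and outside the gene-end window. The single Stat5b gene-end peak, in KO replicate 3, was the Stat5a peak of that library.

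A region inside Stat5b from 100840298 to 100841562, 9019 bp from the nearer Stat5b start, was strong in both genotypes and passed a q-value of 0.05 in all 6 libraries. Summit fragments were 18, 15 and 18 in KO and 8, 12 and 11 in WT libraries. Its percentiles were 8.72, 6.54 and 19.9 in KO and 12.2, 2.27 and 1.98 in WT libraries, so WT replicates 2 and 3 ranked it above each KO library. A region at the far edge of the Stat5b span, at the start of the neighbouring gene Ghdc, was likewise found in all 6 libraries.

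**Figure D2:**
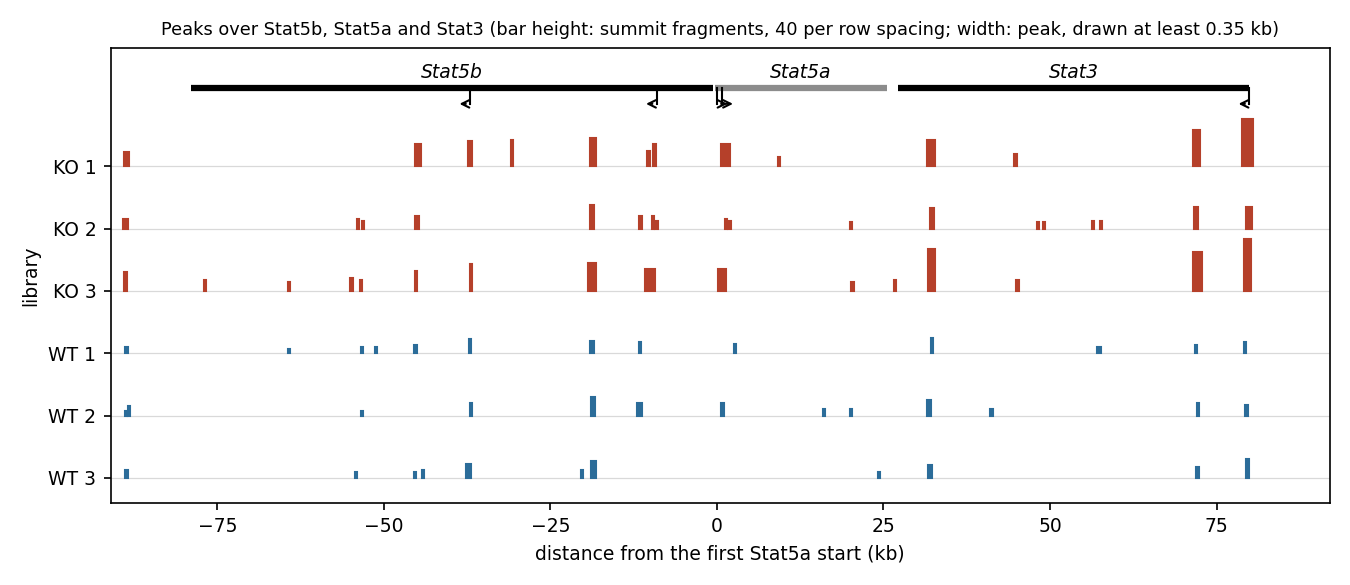
Peaks over Stat5b, Stat5a and Stat3 in each library, by distance in kb from the first Stat5a start; bar height is summit fragments, bars are drawn at least 0.35 kb wide, and arrows mark RefSeq starts. At the Stat5b start about 9 kb left of 0 bars stand in the 3 KO rows and in no WT row, while the Stat5b body region about 18 kb left of 0 has a bar in all 6.

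Of the SOCS genes, Socs1 and Cish were marked at the start in all 6 libraries, Socs3 had gene-end peaks in KO replicates 1 and 3, and Socs2 had none. Socs1, whose product binds and inhibits JAK kinases directly, spans 10783808 to 10785536 on chromosome 16. Its peak held 13, 11 and 17 fragments in KO and 5, 4 and 6 in WT libraries, with folds of 5.65, 6.19 and 5.49 in KO and 3.95, 3.05 and 4.67 in WT libraries. Both measures were higher in each KO library than in each WT library. For summit fragments the same held in 83.2% of the 5501 regions with peaks in all 6 libraries. For fold the share is not given here. The percentiles of the Socs1 peak were 8.73, 5.92 and 11.1 in KO and 25.9, 69.8 and 9.33 in WT libraries, so in rank WT replicate 3 lay between the KO libraries.

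Cish, a target of STAT5 whose product binds cytokine receptors, spans 107296659 to 107302784 on chromosome 9. Its start peak held 20, 10 and 20 fragments in KO and 8, 6 and 5 in WT libraries. Widths of the best peak were 1743, 756 and 1362 bp in KO and 589, 200 and 509 bp in WT libraries. The pair of TTCNNNGAA copies at the start, printed in capitals above, lay inside the peak in 3 of 3 KO libraries and in 1 of 3 WT libraries. In WT replicates 1 and 2 the peaks ended before it, at 107296519 and 107296652, the latter 7 bp from the start. Peaks were wider in KO libraries over whole lists too, with medians of 306, 311 and 391 bp against 234, 221 and 236 bp. The share of all TTCNNNGAA copies that lay inside peaks is not given here, so this contrast cannot be taken as particular to Cish. A flanking region from 107312461 to 107313762, at and beyond the 10 kb limit of the span, had 21, 18 and 20 fragments in KO and 6, 10 and 10 in WT libraries. Another, from 107288999 to 107290146 at the start of Mapkapk3, had 27, 18 and 26 in KO libraries and 11 and 10 in WT replicates 2 and 3.

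Socs3, the inhibitor of gp130 and G-CSF receptor signals, spans 117966079 to 117970336 on chromosome 11. Its gene-end peaks were small, with 6 fragments in KO replicate 1 and 9 in KO replicate 3, and lay apart, from 117969113 to 117969487 and from 117969999 to 117970239. The TTCNNNGAA copy of its promoter, at 117969512 to 117969520, lay between them and inside no peak of the 6 libraries. A peak of 5 fragments in WT replicate 1, from 117968556 to 117968755, lay in the gene body, 611 bp from the start. In the flanks, a region from 117979264 to 117979933 had 9, 6 and 9 fragments in KO libraries and no WT peak. On the other side a region from 117959718 to 117960863 had 12, 5 and 9 fragments in KO and 4 and 3 in WT replicates 2 and 3. Socs2, the regulator of growth hormone signalling, spans 95383903 to 95417321 on chromosome 10. It had 1 peak in the 6 libraries, of 200 bp and 5 fragments, in its body in WT replicate 2, and 10800 genes (49.3%) shared its lack of gene-end peaks.

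The second comparison took the whole spans. They held 42, 47 and 42 peaks in KO and 29, 32 and 26 in WT libraries, or 43.7 ± 2.89 and 29 ± 3 (SD, n = 3 each). These were 0.113% ± 0.0278 of all KO peaks and 0.119% ± 0.0123 of all WT peaks (SD, n = 3 each), with overlapping ranges. When each list was cut to its best 21917 peaks, the length of the shortest, the spans held a mean of 26.7 peaks in KO and 26.7 in WT libraries, a difference of 0. The greater number of KO peaks was thus not seen at equal list length.

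Peak coverage differed also at equal list length. Peaks covered 25118, 17401 and 24391 bp of the spans in KO and 8916, 10682 and 9032 bp in WT libraries, a ratio of means of 2.34. As a share of the spans this was 3.94% ± 0.752 in KO and 1.69% ± 0.174 in WT libraries (SD, n = 3 each). Over the spans of all protein-coding genes the shares were 1.23% ± 0.245 in KO and 0.493% ± 0.0709 in WT libraries (SD, n = 3 each), a ratio of 2.50. With the best 21917 peaks of each list the members' spans were covered over 16986 bp in KO and 8950 bp in WT libraries. Coverage of all gene spans at that length is not given here. Of 15885 genes with a peak in the span, 43.7% then had more coverage in each KO than in each WT library. Over whole lists the median peak width was 306, 311 and 391 bp in KO and 234, 221 and 236 bp in WT libraries.

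Gene by gene, all 3 KO values lay above all 3 WT values at Jak1, Tyk2, Stat3, Stat5a, Stat5b, Socs3 and Cish, 7 of 10 members. The same held for 53.7% of the 17010 genes with a peak in the span. No member had all WT values above all KO values, a pattern of 0.476% of those genes. The median ratio of KO to WT coverage was 2.22 over the 10 members and 2.36 over the 15132 genes with a WT peak in the span. Stat5b was covered over 5117 ± 1349 bp in KO and 2460 ± 30.1 bp in WT libraries, and Stat3 over 3863 ± 549 and 1746 ± 198 bp. Jak1 had 3511 ± 497 bp in KO and 1572 ± 731 in WT libraries, Cish 3114 ± 1185 and 1071 ± 424, and Stat5a 3045 ± 939 and 953 ± 443. Tyk2 had 2296 ± 223 bp in KO and 647 ± 431 in WT libraries, and Socs3 1519 ± 395 and 200 ± 0 (SD, n = 3 each throughout). Each WT value of Socs3 is 1 peak of 200 bp, and no 2 of the 3 peaks overlap. Spans of neighbours overlap, so Stat5a, Stat5b and Stat3 share some of these peaks.

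Jak2, Socs1 and Socs2 did not separate the genotypes. Jak2 was covered over 2785, 1400 and 2265 bp in KO and 1428, 714 and 1439 bp in WT libraries. Socs1 had 730, 291 and 1136 bp in KO and 329, 367 and 812 in WT libraries, and Socs2 0, 0 and 0 bp in KO and 0, 200 and 0 in WT libraries. Exact permutation tests over the 20 assignments of libraries, two-sided and adjusted by Benjamini-Hochberg over 17010 genes, gave p = 0.1 and adjusted p = 0.185 for each of the 7 separated members. For Jak2, Socs1 and Socs2 the exact p was 0.3, 0.7 and 1. A test of 3 against 3 libraries cannot go below 0.1, and 0 of the 17010 genes had an unadjusted p under 0.05. At equal list length Tyk2, Stat3, Stat5a, Socs3 and Cish still separated, and so did 43.7% of genes. Without the flanks Stat5a overlapped, with 1566, 722 and 1426 bp in KO and 216, 827 and 200 bp in WT libraries, and so did Socs3, with 375, 0 and 241 bp in KO and 200, 0 and 0 bp in WT libraries. Stat5a also overlapped with flanks of 20 kb. With a −log10 q-value of at least 5, Stat5b was the one of the 7 that still separated, and Socs1 separated too. For Stat5b this coverage was the body region from 100840298 in KO replicates 1 and 2. In KO replicate 3 it was 357 bp of a peak at the start of the neighbouring gene Ghdc. The share of all genes that separated at this cut is not given here, so these calls cannot be taken as particular to these genes.

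**Figure D3:**
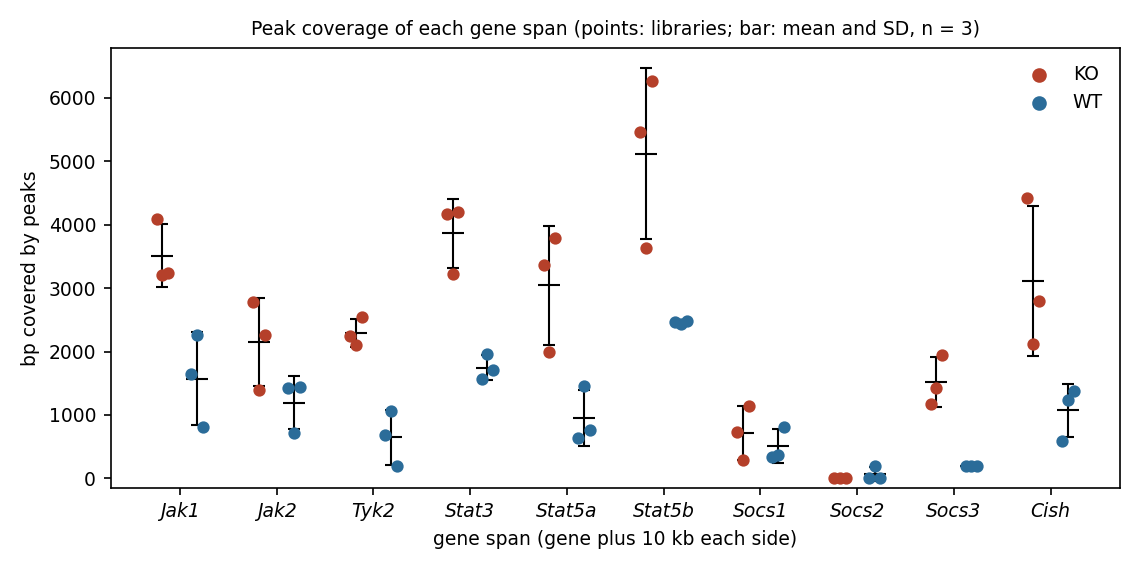
Base pairs covered by peaks in the span of each gene, with KO points left of WT points and mean and SD bars (n = 3 libraries each). KO and WT points do not overlap at 7 genes, and they overlap at Jak2, Socs1 and Socs2.

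The peaks were then joined across libraries wherever they overlapped by at least 1 bp. The member spans held 101 such regions, of which 60 (59.4%) came from 1 library, 37 from a KO and 23 from a WT library, against 73.5% of all 104459 regions. At Jak1 19 of 29 regions came from 1 library, and at Cish 1 of 7 did. The 3 regions with a peak in all KO and no WT libraries, 2.97% of the 101 beside 2.70% of all regions, were the Stat5b start, the Socs3 flank from 117979264 and a Jak2 flank from 29241647 to 29242282. The Jak2 flank held 8, 7 and 7 fragments in the KO libraries and missed a q-value of 0.05 in KO replicate 3. A further 9 regions (8.91%) were found in all 6 libraries, as were 5.27% of all regions. Joined regions were counted whole where any part touched a span. In the Cish flank region from 107312461 the peaks of KO replicate 2 and WT replicates 1 and 3 lay beyond the span.

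To set those 9 regions side by side, summit fragments were divided by the genome background of the library, a measure chosen after the data had been seen. In 8 of the 9 each KO value exceeded each WT value, which was so for 83.7% of the 5501 regions of this kind. The ratio of KO to WT means had a median of 2.0 (quartiles 1.57 and 2.21) at the members and 1.92 (quartiles 1.60 and 2.24) over all 5501. It was 2.42 at the Stat3 body region from 100931055, 2.34 upstream of Tyk2, 2.21 at the Stat3 start, 2.14 at the Socs1 start and 2.0 at the Cish start. The Stat5b body region from 100840298 was the exception, with 24.4, 32.3 and 21.8 in KO and 16.0, 20.5 and 22.1 in WT libraries. Background and summit height both follow sequencing depth and the share of fragments in peaks, and the part of each was not tested.

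**Figure D4:**
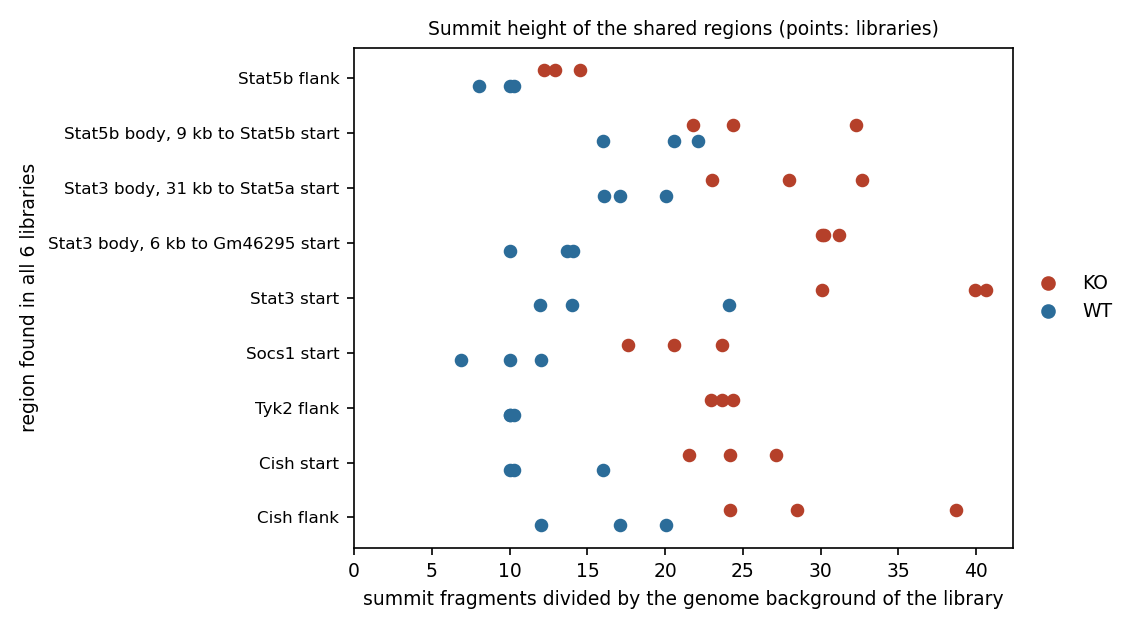
Summit fragments divided by the genome background of the library for the 9 regions found in all 6 libraries (rows), with 1 point per library. KO points lie right of all WT points in 8 rows, and the Stat5b body region, 9 kb from a Stat5b start, is the row where they overlap.

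In both genotypes peaks at gene ends of the members had larger medians than peaks in bodies or flanks. Peaks were pooled over the libraries of a genotype, so these values carry no spread between libraries. The body class includes the peaks at both Stat5b starts. A peak that belongs to the spans of neighbouring genes was counted for each of them, which gave 25 gene-end, 73 body and 49 flank peaks in KO and 16, 53 and 25 in WT libraries. Peaks at gene ends of the members had a median width of 756 bp in KO and 416 bp in WT libraries, with a median of 14 and 6.5 summit fragments. Peaks in gene bodies were narrower, at 312 bp in KO and 202 bp in WT libraries with 8 and 5 fragments. Peaks in the flanks were of 396 bp in KO and 203 bp in WT libraries with 9 and 5 fragments. A q-value of at most 0.05 was reached by 80% of end peaks in KO and 31.3% in WT libraries, by 45.2% and 17.0% of body peaks, and by 65.3% and 24% of flank peaks. Over whole lists it was reached by 43.9% to 66.6% of KO peaks and 15.7% to 16.7% of WT peaks.

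The wider pathway was read from 50 other genes in 5 groups. Gene ends were marked at 39, 39 and 37 of them in KO and 24, 28 and 22 in WT libraries, or 38.3 ± 1.15 and 24.7 ± 3.06 (SD, n = 3 each). In all KO and no WT libraries 3 of the 50 were marked, among them Socs6 and Pias3 (window shared with Nudt17), beside the 4.10% of all genes. None was marked in all WT and no KO libraries, 13 were marked in all 6 and 8 in none. Of all genes, 42.0% were marked in KO and 27.5% in WT libraries, 17.0% in all 6 and 49.3% in none.

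Among the other kinases and STATs, 4 ± 0 of 5 were marked in KO and 1.67 ± 1.15 in WT libraries (SD, n = 3 each). Stat6, which acts downstream of IL-4 (window shared with Nab2), was marked in all 6 libraries at percentiles of 7.84 or better. Stat4 had no gene-end peak in any library. The remaining SOCS genes Socs4, Socs5, Socs6 and Socs7 were all marked in every KO library, against 1.67 ± 0.577 of 4 in WT libraries (SD, n = 3). Socs4 (with Wdhd1 and Gm35078) was the one marked in all 6.

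Receptors were marked at 13 ± 1 of 18 in KO and 9.33 ± 1.15 in WT libraries (SD, n = 3 each). In all 6 libraries 5 of them were marked, the interferon receptor genes Ifnar2 (with Il10rb), Ifngr2 and Ifngr1 first in rank, and Ifnar2 ranked at percentile 4.52 or better in each list. Lifr, Osmr and Ghr had no gene-end peak in any library, and Epor had one in 3 KO and 2 WT libraries. Negative regulators were marked at 10 ± 0 of 12 in KO and 6.33 ± 1.53 in WT libraries (SD, n = 3 each). Ptprc, which encodes the phosphatase CD45, was marked in all 6 at percentile 4.97 or better. The phosphatase gene Ptpn2 and the adaptor gene Sh2b3 (with Atxn2) were also marked in all 6, but more weakly in WT libraries. Percentiles in WT replicates 1 to 3 were 44.3, 81.3 and 28.6 for Ptpn2 and 25.8, 18.4 and 92.5 for Sh2b3. In 0 WT libraries did either reach a q-value of at most 0.05. Pias3, which encodes an inhibitor of STAT3, had gene-end peaks at a q-value of at most 0.05 in 2 KO libraries.

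STAT target genes were the group whose KO and WT libraries overlapped, with 7, 8 and 7 of 11 marked in KO and 3, 7 and 7 in WT libraries. Pim3 (with Gm33049), Junb and Bcl6 were marked in all 6 libraries. Myc and Pim1 were marked in 3 KO and 2 WT libraries each. Mcl1 had no gene-end peak in any library, Bcl2l1 and Ccnd1 had one in a single WT library, and Ccnd2 had one in a single KO library.

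**Figure D5:**
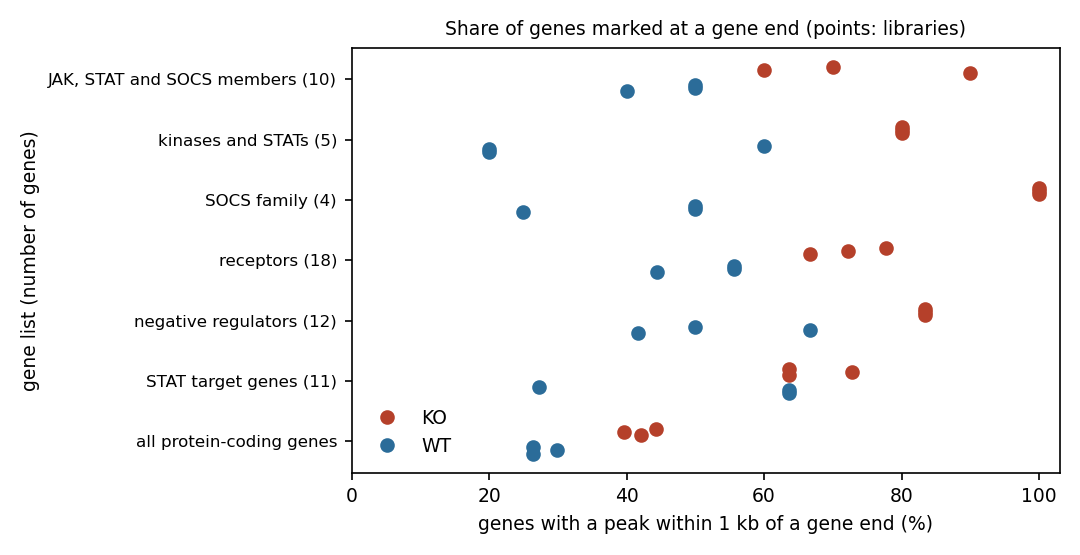
Percentage of genes with a peak within 1 kb of a gene end in each library (points) for the 10 members, the 5 groups of other pathway genes and all protein-coding genes. KO points lie right of WT points for each row except the STAT target genes, and the row of all genes shows the same order.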

How the data were processed

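The deposited files are narrowPeak lists, 1 per library. The submitters' processing notes name MACS2, BWA and Trimmomatic, besides deepTools, ChIPseeker and HOMER, with the GRCm38 (mm10) build; neither versions, settings nor a control library is given in the sources used. The authors deposited for each peak a score, a ratio (the fold enrichment at the summit), a −log10 p-value and a −log10 q-value. These depend on depth, which the lists do not state. No blacklist of artefact-prone regions was applied.

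The members and gene lists were chosen with earlier results of these data known. Peaks were ranked within each list by −log10 p-value, as a percentile from 0 (strongest). Fold is (pileup + 1) / (background + 1) and p a Poisson tail, so summit pileups were solved for; at least 99.997% of peaks with −log10 p-value under 15 gave a whole number, at a tolerance of 0.002. The background found most often in a list was taken as its genome background. Peaks were placed at a gene end, in the body or in the flank, in that order of priority, from an overlap of 1 bp. Gene spans, starts and promoters came from RefSeq GRCm38.p6; exons and introns were not analysed here. All 10 members are named. Of other pathway genes, those marked in 1 genotype alone, and up to 3 per group marked in all 6 libraries, are named by rule in the order of their weakest rank, and genes that share a member's pattern in the order of mean rank; the rest were chosen after their values were seen. Some genes that the rule selects are left out of the text. Exact permutation tests used the 20 assignments of libraries (scipy 1.17.1, numpy 2.4.6, pandas 2.3.3). Alternatives were q-value limits, lists of equal length, other windows, flanks and overlaps, starts alone, leaving out each library in turn, and a replicate block. Calls and pileups were tested on simulated data.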

Additional observations from a re-analysis of the deposited data

How the results depend on the processing

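Of 80 alternative values for the counts and coverage over the 10 genes and the wider pathway, 74 kept their direction, or for the count of members marked in 1 genotype alone stayed within 1.5 times, and of 130 for the coverage of single genes, 125 kept their direction; 0 reversed. Part of this was fixed in advance. The replicate block reuses the same values, and leaving out a library cannot reverse a difference whose KO values all exceed its WT values. The 5 counts that moved were all of members marked in all KO and no WT library. The reverse count was 0 in every setting. Sizes moved more: 6 of the 74 and 24 of the 125 lay over 1.5 times from the value reported. The KO minus WT difference at a q-value of at most 0.05 was 5 members and 26.7 pathway genes, against 2.67 and 13.7 with all peaks. At a −log10 q-value of at least 5 it was 7 peaks and 6311 covered bp, and coverage differed by 8036 bp with lists of equal length and 8205 bp without flanks, against 12760 bp. Jak1 coverage differed by 350.7 bp with lists of equal length, against 1939 bp, and Socs3 coverage by 113.3 bp at a −log10 q-value of at least 5, against 1319 bp. With lists of equal length the KO minus WT difference in peaks per span set was 0, against 14.7 with all peaks. The number of members marked in all KO and no WT library, 0 as reported, was 1 with a q-value of at most 0.05 (Jak1), 1 with a −log10 q-value of at least 5 (Socs1) and 1 with a window of 2 kb (Tyk2). It ranged from 0 to 1 when a library was left out, with Tyk2 added without KO replicate 1 and Socs3 without KO replicate 2. For these Socs1, Tyk2 and Socs3 calls the share of all genes at the same setting is not given here. Leaving out a library moved the KO minus WT difference between 1.83 and 3.33 marked members, 12.3 and 15.3 pathway genes, 13 and 16.2 peaks and 11353 and 15211 covered bp. The coverage difference at Socs1 was 7.83 bp without KO replicate 3 and 430.3 bp without KO replicate 2, against 216.3 bp with all libraries. Same-numbered KO and WT libraries did not vary together (correlations -0.0122, 0.00466 and -0.00447), no KO library correlated best with its own number, and numbers were not taken as pairs. With a replicate block the difference stayed 2.67 members, with an exact sign-flip p of 0.25, the smallest possible. Median summits of 5 to 9 fragments, over peaks with a −log10 p-value under 15, limit what presence or absence of a peak can show.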
